A study of Mus musculus with 18 samples.

Results

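The 34 genes described here encode the enzymes of sterol and fatty acid synthesis, the regulators that set their transcription, and the proteins that carry sterols out of the cell. They were chosen by symbol from a list of genes by function, made with earlier results of these data known, and all 34 were found among the 55487 genes of the count table. Of these, 31 had enough counts to be tested, and Mvd, Scd1 and Nr1h3 did not. BV2 cells, an immortalized mouse microglial line, came in a line labelled NC and a line labelled BAK1-KD, and neither label is spelled out. Each line was harvested untreated (control, 0 h) and 12 h or 24 h after oxyhemoglobin, the form of hemoglobin that holds oxygen, was added; the labels give 10 mM as its dose, a large value for a protein, so the unit is doubtful. Every group had 3 libraries of total RNA, 18 in all. All groups were grown in the same serum-containing medium, and no untreated culture was sampled at 12 h or 24 h, so treatment and time in culture cannot be told apart. The labels do not say that the 3 libraries of a group came from separate cultures, so a p-value here reflects how far these libraries spread and no more.

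Cholesterol is built from acetyl-CoA in a relay of enzymes: the mevalonate arm makes isoprenoid units, these are joined into squalene, squalene is epoxidized and cyclized to lanosterol, and a series of demethylations and reductions turns lanosterol into cholesterol. When sterols in the endoplasmic reticulum are low, Scap carries the SREBP factors to the Golgi, where they are cleaved and go on to switch on the synthesis genes, while the Insig proteins hold Scap back when sterols are plentiful. Oxysterols activate the LXR receptors, which drive the efflux pumps Abca1 and Abcg1. Microglia use both sides of this balance when they take up and clear lipid-rich debris.

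Library totals ran from 4361313 to 6008810 counts, and the 34 genes together took 0.421 to 0.594% of them. Levels are given as CPM (counts scaled to a common library total with TMM factors, which correct for differences in composition). The count that a zero allows, 3 counts, corresponds to 0.455 to 0.757 CPM, and this floor covers counting error only. Bak1, the gene named by the KD label, had 0 to 7 counts in each NC library and 1 to 12 in each library labelled KD, so it was not lower there. A direction between the lines therefore always refers to the KD-labelled libraries and not to a shown loss of Bak1. All 14 microglial markers listed had counts, and their sum was 620 to 730, 685 to 758 and 569 to 623 CPM in NC at 0, 12 and 24 h, and 844 to 893, 859 to 996 and 661 to 756 CPM in KD. In KD the 24 h libraries lay below every control, and all KD libraries lay above the NC libraries of the same time. P2ry12, a marker of resting microglia, had 8 counts in all 18 libraries. Of 6 erythroid markers only Alas2 had counts, and the globins were at 0. Of 4 neuronal markers only Tubb3 had counts, with a sum of 0.716 to 3.05 CPM in the NC libraries and 3.13 to 10.6 CPM in those labelled KD. The sum of 6 fibroblast and endothelial markers was 1.48 to 2.65 CPM in NC control, 5.39 to 6.80 CPM in NC 12 h and 6.93 to 8.07 CPM in NC 24 h, with Col1a2 and Pdgfrb at 0. In the libraries labelled KD that sum was 3.32 to 6.07, 4.31 to 8.59 and 6.98 to 13.3 CPM at the same times. The sum of 5 astrocyte markers was 2.50 to 4.60, 6.62 to 7.90 and 2.94 to 8.62 CPM in NC at 0, 12 and 24 h, and 1.87 to 4.40, 2.58 to 7.55 and 5.22 to 7.50 CPM in KD, with Aqp4, Aldh1l1 and Slc1a3 at 0. Oligodendrocyte markers, 4 in all with Mog and Olig2 at 0, summed to 0.537 to 2.73 CPM over all libraries. The part of these markers in the results below was not tested. The library numbered 2 had the lowest median deviation over the tested genes of the set in each of the 6 groups. Exons of other genes overlap 26.7% of the exon bases of Fdps, 18.3% of Fdft1, 13.2% of Scap, 12.1% of Hmgcs1 and Tm7sf2, 9.2% of Idi1, 3.8% of Cyp51 and 3.5% of Lss, and reads there may belong to either gene.

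Hsd17b7 and Msmo1, which act late in cholesterol synthesis, rose and the efflux pumps Abca1 and Abcg1 fell at 12 h and 24 h of oxyhemoglobin in both lines. No gene of the mevalonate arm or of fatty acid synthesis was called in the fit without the library number as a block. With that block Idi1 and Fdps of the mevalonate arm were called, higher, in all 4 treatment comparisons, Fasn was called, higher, in KD at 24 h and Scd2, lower, in KD at 12 h. A gene is called where edgeR's quasi-likelihood test gave a Benjamini-Hochberg adjusted p under 0.05 over 15996 genes, and each change is a log2 fold change ± SE, from 3 libraries in each group. In NC at 12 h against control, 8 of the 31 tested genes were called, 6 higher and 2 lower, where 12.2% of all tested genes were called. At 24 h in NC 6 were called, 4 higher and 2 lower, against 7.57% of all genes. In the KD-labelled line 6 were called at 12 h and 6 at 24 h, each time 3 higher and 3 lower, against 16.0% and 9.59% of all genes. At 12 h Lss, Msmo1, Hsd17b7, Abca1 and Abcg1 were called in the same direction in both lines, which is 62.5% of the NC calls and 83.3% of the KD calls. At 24 h Msmo1, Hsd17b7, Abca1 and Abcg1 were, 66.7% of the calls of each line. The median change over the 31 genes was 0.28 and 0.26 in NC and 0.08 and 0.08 in KD at 12 h and 24 h, and the median over all tested genes lay within 0.01 of 0. With the library number as a block the counts were 13 and 13 in NC and 12 and 10 in KD. The shares of all genes given here are from the fit without the block, so the block counts have no share beside them. Between 12 h and 24 h edgeR called none of the 31 in either line, where 2.76% (NC) and 4.28% (KD) of all genes were called. At an unadjusted p under 0.05 there were 4 in NC and 2 in KD, beside 2197 and 2284 of all 15996 tested genes. DESeq2 called 0 in each, and the block gave 2 (Lss and Insig1, lower at 24 h) and 4 (Idi1, Stard4 and Fasn higher, Abcg1 lower). In bulk RNA, fewer cells of a kind and less RNA per cell cannot be told apart.

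**Figure D1:**
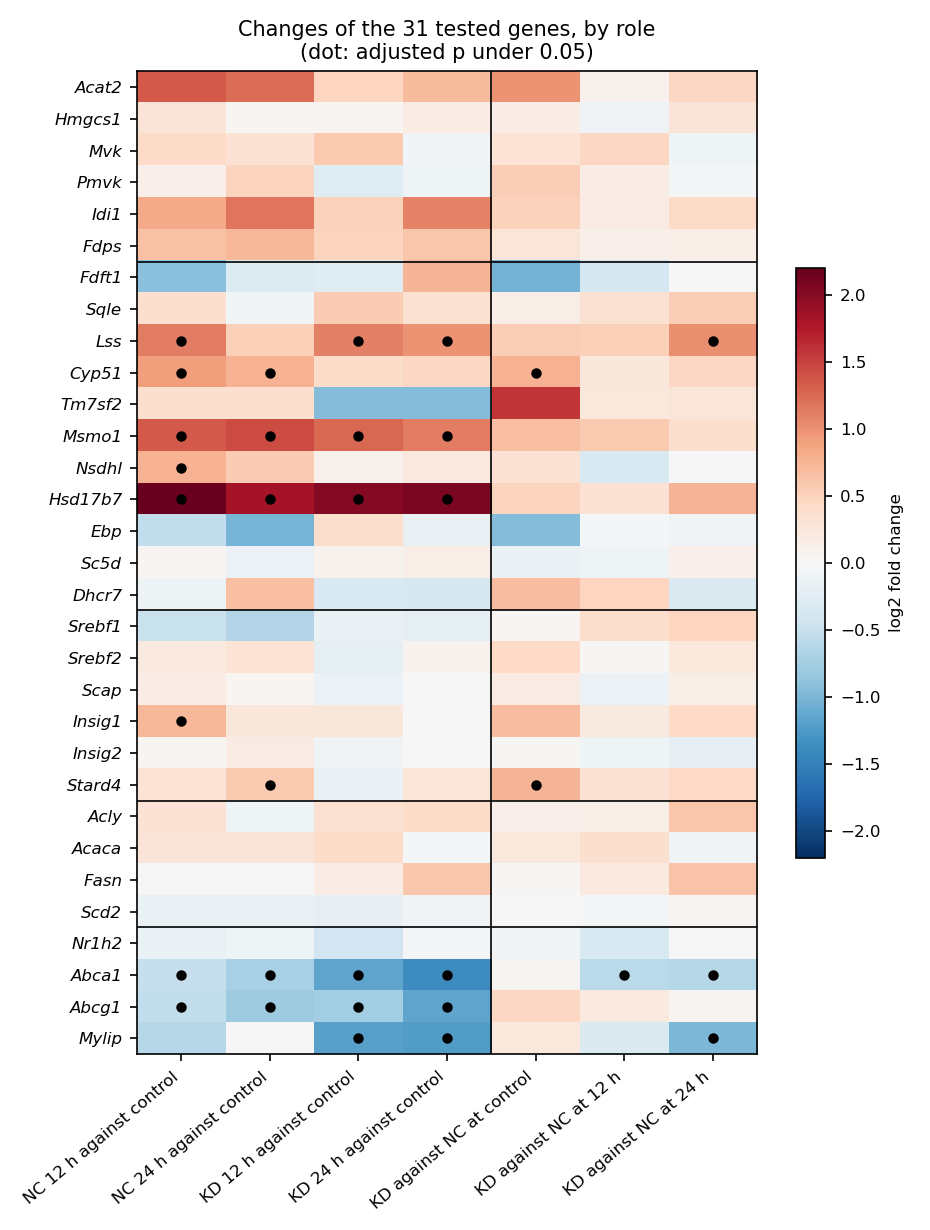
Log2 fold change of each of the 31 tested genes (rows, grouped by role) in 7 comparisons (columns), with red for higher, blue for lower and a dot for an adjusted p under 0.05. Dots on red gather in the squalene-to-cholesterol rows and dots on blue in the efflux rows.

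Of the 11 genes that lead from squalene to cholesterol, all tested, 5 were called higher in NC at 12 h, 3 in NC at 24 h, and 3 in KD at each time. None was called lower. The shares are 45.5% in NC at 12 h and 27.3% in the other 3, beside 12.2, 7.57, 16.0 and 9.59% of all tested genes. Hsd17b7 (ENSMUSG00000026675, chr1:169949535-169969241, minus strand, GRCm38), which reduces the 3-keto group of the sterol after demethylation, changed most of the 11 in both lines. In NC its level was 6.03, 8.87 and 7.33 CPM at control, 37.9, 27.4 and 36.6 CPM at 12 h and 20.9, 27.7 and 30.3 CPM at 24 h. For KD the levels were 10.8, 12.0 and 8.50 CPM at control, 38.8, 42.2 and 46.5 CPM at 12 h and 47.8, 41.3 and 43.2 CPM at 24 h. Every treated library lay above every control library of its line. The log2 change at 12 h was 2.18 ± 0.21 in NC (adjusted p = 1.74e-07), a 4.54-fold rise, and 2.01 ± 0.21 in KD (2.75e-07). At 24 h it was 1.82 ± 0.22 in NC (4.82e-06) and 2.07 ± 0.21 in KD (2.91e-07).

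Msmo1 (ENSMUSG00000031604, chr8:64718139-64733792, minus strand), the methylsterol monooxygenase that starts removal of the C4 methyl groups, was the other gene of the 11 called in all 4 treatment comparisons. NC libraries held 14.8, 19.5 and 19.5 CPM at control, 38.8, 46.0 and 53.0 CPM at 12 h and 39.9, 47.4 and 58.2 CPM at 24 h. In KD the values were 24.5, 35.1 and 25.9 CPM, then 55.6, 75.0 and 75.4 CPM, then 59.3, 62.7 and 64.4 CPM. Treated and control libraries did not overlap in either line. The log2 change was 1.35 ± 0.20 (adjusted p = 5.23e-05) and 1.43 ± 0.20 (4.72e-05) in NC at 12 h and 24 h, and 1.26 ± 0.20 (5.62e-05) and 1.12 ± 0.20 (0.00037) in KD.

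Lss (ENSMUSG00000033105, chr10:76531588-76557138, plus strand), the cyclase that folds squalene epoxide into lanosterol, had 22.3, 12.8 and 20.1 CPM in NC control, 46.2, 36.0 and 38.5 CPM at 12 h and 27.8, 25.1 and 25.9 CPM at 24 h. In the KD-labelled libraries the levels were 28.7, 22.0 and 29.7 CPM, then 62.9, 49.2 and 61.4 CPM, then 58.3, 37.5 and 63.9 CPM. The 12 h libraries lay above the controls in both lines, and the 24 h libraries did too, by a narrower margin in NC. At 12 h the log2 change was 1.13 ± 0.22 in NC (adjusted p = 0.00109) and 1.11 ± 0.22 in KD (0.00075). At 24 h it was called in KD (0.99 ± 0.22, adjusted p = 0.00357) and not in NC (0.52 ± 0.22, 0.194, and 0.00931 with the library number as a block). The 24 h change of KD less that of NC was not called by the interaction test (difference 0.48 ± 0.31, 95% interval -0.17 to 1.12, adjusted p = 1).

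Cyp51 (ENSMUSG00000001467, chr5:4081145-4104746, minus strand), the lanosterol demethylase, was called in NC only. Its NC levels were 40.6, 33.7 and 41.1 CPM at control, 79.0, 61.7 and 77.8 CPM at 12 h and 57.8, 53.4 and 83.9 CPM at 24 h. KD levels were 59.1, 63.5 and 72.2 CPM, then 93.7, 81.8 and 83.6 CPM, then 86.1, 97.1 and 83.6 CPM. Treated libraries stood above controls in both lines, and the KD controls stood above the NC controls. In NC the log2 change was 0.92 ± 0.18 at 12 h (adjusted p = 0.000889) and 0.76 ± 0.18 at 24 h (0.00778). The 24 h call was lost without NC 24 h library 3 (adjusted p = 0.0906) or NC control library 2 (0.0528). KD changes were 0.41 ± 0.17 (adjusted p = 0.12) and 0.45 ± 0.17 (0.113), which the block brought to 0.0107 and 0.00576. The difference of the 12 h changes was -0.51 ± 0.25 (adjusted p = 0.883).

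Nsdhl (ENSMUSG00000031349, chrX:72918557-72958514, plus strand), the decarboxylating dehydrogenase of C4 demethylation, had 24.7, 17.6 and 17.3 CPM in NC control and 37.9, 31.1 and 32.2 CPM in NC 12 h. It rose by 0.76 ± 0.21 on the log2 scale (adjusted p = 0.0183), with no overlap of the groups, and the adjusted p was 0.101 without NC control library 3, 0.095 without NC control library 2, 0.0862 without NC 12 h library 1 and 0.116 without all libraries numbered 2. In KD, 24.0, 24.3 and 26.1 CPM at control stood against 30.4, 22.3 and 27.2 CPM at 12 h, a log2 difference of 0.10 ± 0.21 (0.826). The other 6 genes of this arm were not called in any treatment comparison by the test without the block. Sqle, the squalene epoxidase, reached 19.3 to 21.1 CPM in KD 12 h against 12.9 to 14.1 CPM in KD control (0.56 ± 0.20, adjusted p = 0.0674, and 0.0219 with the block). Sc5d, the sterol desaturase, stayed between 30.6 and 43.7 CPM in every library, with changes from -0.13 to 0.14. Fdft1, Tm7sf2, Ebp and Dhcr7, which make squalene and carry out later reductions and isomerization, had group means of 0.890 to 5.75 CPM, where counting error is large. Ebp, for example, had a log2 change of -1.03 ± 0.55 in NC at 24 h (adjusted p = 0.329). Tm7sf2 in KD had 2.49 to 2.98 CPM at control, 1.10 to 1.68 CPM at 12 h and 1.04 to 1.90 CPM at 24 h. Those treated libraries lay below the KD controls, uncalled, while in NC treated and control libraries of Tm7sf2 overlapped.

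**Figure D2:**
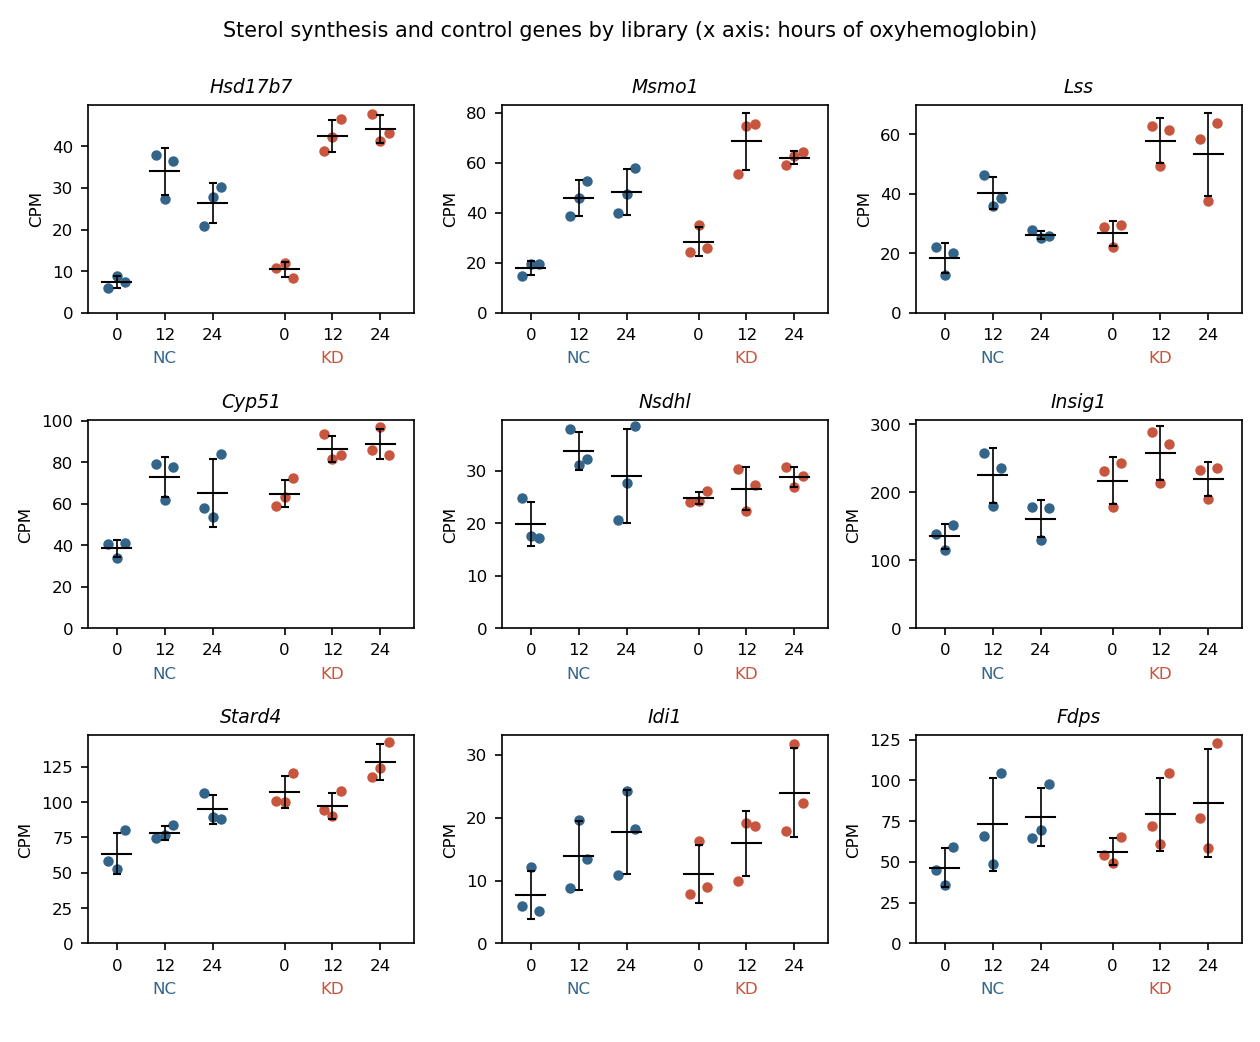
CPM (y axis, from 0) of 9 sterol genes in each of the 18 libraries (points) at 0, 12 and 24 h of oxyhemoglobin (x axis), NC and KD side by side, with the group mean (line) and SD (bar). Hsd17b7 goes from 6.03 to 8.87 CPM in NC control to 27.4 to 37.9 CPM at 12 h, and the 12 h points of Idi1 and Fdps overlap the 0 h points of their line.

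The promoters of these genes were searched because several of them moved together, and the stretches shown belong to a few of the members that hold a match, from the late sterol, control, mevalonate and efflux genes. RefSeq promoter sequences (GRCm38.p6) were at hand for 27 of the 34 genes, and the 250 bases before each start were searched on both strands. CCAAT, the box bound by NF-Y, a usual partner of the SREBP factors, read as ATTGG on the other strand, was in 20 of the 27 (74.1%), against 37.5% of 27025 genes. All 9 squalene-to-cholesterol genes in the table held it, as did 5 of 6 mevalonate genes, 4 of 5 control and transport genes, 1 of 3 fatty acid genes and 1 of 4 LXR and efflux genes. Some of these windows lie partly or wholly inside the GENCODE gene. All 250 bases do for Tm7sf2 and for the Dhcr7 start with CCAAT, 214 for Msmo1, 105 for Idi1 and 49 for Cyp51. In each of these genes the CCAAT matches fall in the part inside the gene. CACGTG, the palindromic E-box, was in 6 of 27 (22.2%) against 6.86% of all genes. TCACNCCAC, a core of the sterol response element with N for any base, was in Hmgcs1 only, 3.7% against 1.22%. The motifs do not overlap each other in the stretches below, which run 5′ to 3′ on the gene's strand, upstream of both the RefSeq and the GENCODE start, with the matches in capitals.
Hsd17b7: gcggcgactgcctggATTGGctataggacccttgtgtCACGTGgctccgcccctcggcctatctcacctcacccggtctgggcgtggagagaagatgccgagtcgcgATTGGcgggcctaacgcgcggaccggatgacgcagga
Lss: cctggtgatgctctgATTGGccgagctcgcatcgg
Nsdhl: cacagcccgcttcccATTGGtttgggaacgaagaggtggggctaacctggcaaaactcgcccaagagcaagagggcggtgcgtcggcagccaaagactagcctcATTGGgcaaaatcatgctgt
Insig1: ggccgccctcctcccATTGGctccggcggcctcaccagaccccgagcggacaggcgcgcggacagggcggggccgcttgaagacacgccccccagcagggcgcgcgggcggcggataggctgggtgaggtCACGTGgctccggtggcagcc
Hmgcs1: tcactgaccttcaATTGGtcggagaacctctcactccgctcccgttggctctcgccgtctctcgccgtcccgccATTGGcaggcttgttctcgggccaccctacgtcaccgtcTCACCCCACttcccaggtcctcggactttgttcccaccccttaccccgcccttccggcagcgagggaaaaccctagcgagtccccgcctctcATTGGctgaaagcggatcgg
Abca1: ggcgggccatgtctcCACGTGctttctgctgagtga
Mylip: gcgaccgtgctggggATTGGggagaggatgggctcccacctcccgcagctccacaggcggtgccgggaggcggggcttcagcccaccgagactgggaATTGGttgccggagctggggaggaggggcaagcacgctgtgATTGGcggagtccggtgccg
The stretches lie at chr1:169969242-169969385 (minus strand) for Hsd17b7, chr10:76531528-76531562 (plus) for Lss, chrX:72918397-72918520 (plus) for Nsdhl, chr5:28071181-28071331 (plus) for Insig1, chr13:119690101-119690325 (plus) for Hmgcs1, chr4:53160022-53160057 (minus) for Abca1 and chr13:45389537-45389694 (plus) for Mylip. The set includes genes that were called in the treatment comparisons and Hmgcs1, which was not. Of the efflux genes, Abca1 holds no CCAAT within the window and Mylip, which also fell in KD, holds it. A match describes letters and not a bound site, and some members have several RefSeq starts, each of which was searched.

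None of the 6 tested genes of the mevalonate arm, which runs from acetyl-CoA to farnesyl diphosphate, was called in any of the 12 comparisons by edgeR without the block or by DESeq2. At an unadjusted p under 0.05 there were 3 in NC at 12 h, 3 in NC at 24 h, 2 in KD at 24 h and 0 in the other 9 comparisons. Of all 15996 tested genes, 3860, 3049 and 3476 passed that threshold in the first 3 of these comparisons. Their median log2 change was 0.53 and 0.61 in NC at 12 h and 24 h and 0.48 and 0.39 in KD. Idi1 (ENSMUSG00000058258, chr13:8885501-8892451, plus strand), the isomerase of the isoprenoid unit, had 6.03, 12.2 and 5.09 CPM in NC control and 10.9, 24.2 and 18.2 CPM in NC 24 h. In KD control it had 7.87, 16.2 and 8.92 CPM and in KD 24 h 17.8, 31.7 and 22.3 CPM. Library 2 was the highest of the 3 in all 6 groups, and the KD control and 24 h groups did not overlap. The log2 change at 24 h was 1.18 ± 0.39 in NC (adjusted p = 0.0747) and 1.10 ± 0.38 in KD (0.0761), and the block gave 3.94e-05 and 2.02e-05. At 12 h the block also called it, with an adjusted p of 0.00285 in NC and 0.0429 in KD.

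Fdps (ENSMUSG00000059743, chr3:89093588-89101959, minus strand), the farnesyl diphosphate synthase, was the most abundant of the arm. NC control libraries held 45.1, 35.6 and 59.0 CPM, NC 12 h 66.2, 48.7 and 104 CPM and NC 24 h 64.6, 69.9 and 97.6 CPM. In KD the values were 54.0, 49.2 and 65.5 CPM, then 71.9, 61.3 and 105 CPM, then 77.2, 58.8 and 123 CPM, with library 3 the highest of each group in both lines. Controls and 24 h libraries did not overlap in NC, and the other treated groups overlapped their controls. Its log2 changes lay between 0.49 and 0.74 in the 4 treatment comparisons with adjusted p of 0.152 to 0.294, and with the block all 4 were called (adjusted p 1.24e-05 to 0.00284). For Fdps, 26.7% of the exon bases are also exon of Gm43738 on the same strand, so the counts of the 2 genes could not be kept apart. Hmgcs1, the synthase that supplies mevalonate synthesis, had 1.46 to 6.31 CPM over all libraries and changes of 0.04 to 0.28. Acat2, the thiolase at the start of the relay, had group means of 1.16 to 3.80 CPM and a change of 1.36 ± 0.58 in NC at 12 h (adjusted p = 0.147). Mvk and Pmvk, the kinases that phosphorylate mevalonate, had group means of 1.63 to 4.60 CPM. Mvd, the decarboxylase after them, had 73 counts in all 18 libraries, 18 of them in NC control library 1, and was not tested.

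**Figure D3:**
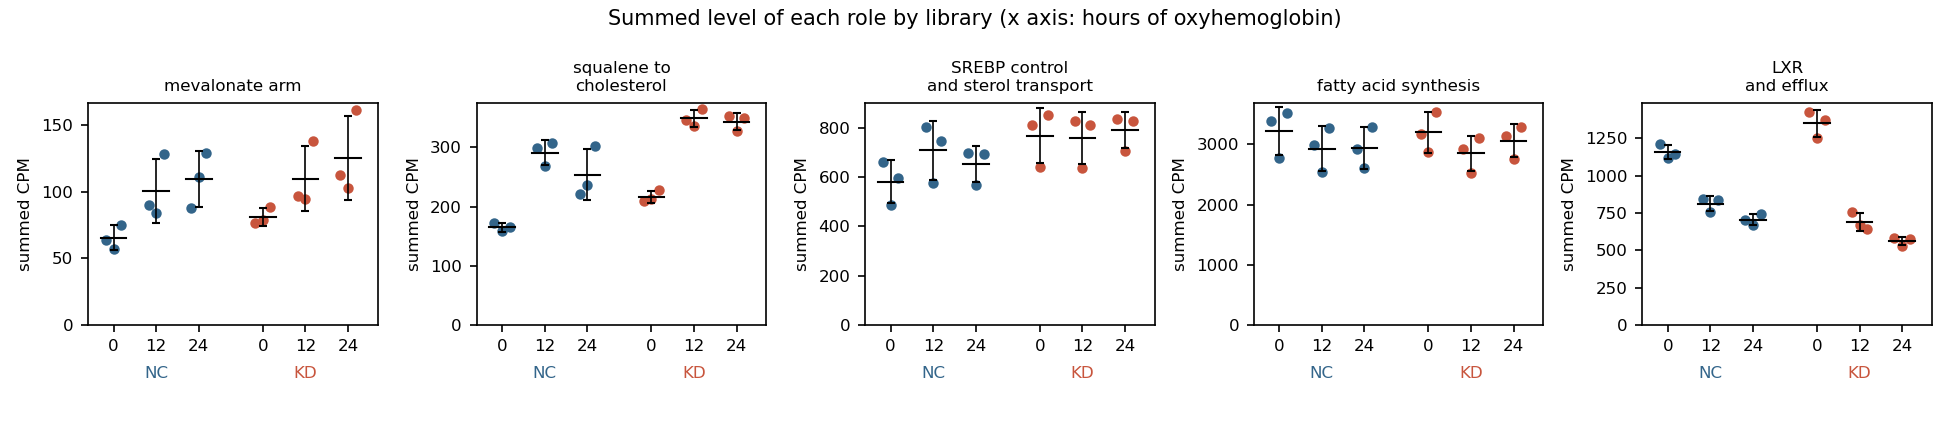
Summed CPM (y axis, from 0) of the genes of each role in each library (points) at 0, 12 and 24 h of oxyhemoglobin (x axis), with mean (line) and SD (bar). The squalene-to-cholesterol sum is 158 to 173 CPM in NC control and 268 to 307 CPM at 12 h, and the LXR and efflux sum goes from 1121 to 1214 CPM to 758 to 844 CPM.

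Among the 6 genes of SREBP control and sterol transport, 1 was called in NC at each time, higher, and none in KD. The 1 of 6 is 16.7%, beside 12.2 and 7.57% of all tested genes in NC and 16.0 and 9.59% in KD. With 6 genes, these counts do not set the role apart from all genes or the lines from each other. The KD count of 0 by edgeR stood beside 0 by DESeq2 and 0 at an unadjusted p under 0.05, and with the block Insig1 was called at 12 h. Of all 15996 tested genes, 4397 at 12 h and 3476 at 24 h had an unadjusted p under 0.05 in KD. Insig1 (ENSMUSG00000045294, chr5:28071363-28078662, plus strand), the Scap anchor that is itself a target of the SREBP factors, had 139, 115 and 151 CPM in NC control, 257, 180.4 and 236 CPM at 12 h and 178, 129 and 177 CPM at 24 h. In KD it had 231, 178 and 242 CPM, then 289, 214 and 270.5 CPM, then 232, 189.9 and 235 CPM. NC 12 h libraries lay above NC controls, and the KD controls overlapped the KD 12 h libraries. The NC change at 12 h was 0.73 ± 0.18 (adjusted p = 0.00846, but 0.0558 without NC 12 h library 1 and 0.0512 without NC control library 2), and the KD change was 0.25 ± 0.18 (0.424, and 0.0223 with the block). The difference between those changes was -0.49 ± 0.26 (adjusted p = 0.951 without the block), and with the block it was called.

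Stard4 (ENSMUSG00000024378), a soluble protein that shuttles sterol between membranes, had 58.2, 52.6 and 80.0 CPM in NC control and 107, 89.6 and 87.9 CPM in NC 24 h. The NC groups did not overlap, and the change was 0.58 ± 0.17 (adjusted p = 0.0337). Leaving out NC control library 1 or 2 gave an adjusted p of 0.119 or 0.187, and leaving out NC 24 h library 1, 2 or 3 gave 0.139, 0.0659 or 0.0572. In KD, 101, 99.8 and 120.5 CPM at control stood against 118, 124 and 142 CPM at 24 h (0.26 ± 0.16, adjusted p = 0.4). The factors themselves were not called. Srebf2, which mainly drives sterol genes, had 85.7 to 155 CPM over all libraries and changes of -0.19 to 0.29. Srebf1, which mainly drives fatty acid genes, had 64.1, 52.4 and 63.9 CPM in NC control and 49.2, 33.2 and 33.4 CPM in NC 24 h, with no overlap (-0.64 ± 0.25, adjusted p = 0.142, and 0.00142 with the block). Scap stayed at group means of 165 to 186 CPM, and Insig2, the second Scap anchor, at 52.3 to 61.9 CPM.

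None of the 4 tested fatty acid synthesis genes was called in any of the 12 comparisons by edgeR without the block or by DESeq2. At an unadjusted p under 0.05 there was 1 in KD at 24 h, 2 between the lines at 24 h, 1 between the lines averaged over times and 0 in the other 9 comparisons. Of all 15996 tested genes, 3476, 1954 and 3781 passed that threshold in the comparisons named, in the same order. Scd2 (ENSMUSG00000025203, chr19:44293674-44306864, plus strand), a desaturase that puts the double bond into stearate, was the most abundant gene of the whole set per length, at 540.3 CPM per kilobase of exon averaged over the 18 libraries, with Insig1 next at 65.4. It had 2704 to 3446 CPM in NC control, 2462 to 3189 CPM in NC 12 h and 2530 to 3223 CPM in NC 24 h. KD libraries ran from 2805 to 3470 CPM at control, 2430 to 3004 CPM at 12 h and 2659 to 3179 CPM at 24 h, so the groups overlapped throughout. Its changes were -0.18 to -0.08, and the block alone called the KD change at 12 h (-0.18, adjusted p = 0.0478). Scd1, its neighbour in the family, had 10 counts in all 18 libraries and was not tested. Reads from the shared parts of these related genes may be split by the counting.

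Fasn (ENSMUSG00000025153, chr11:120805846-120824547, minus strand), the fatty acid synthase, had 52.3, 32.5 and 45.2 CPM in KD control and 65.8, 48.1 and 81.7 CPM in KD 24 h. The groups overlapped, and the change of 0.59 ± 0.24 was not called (adjusted p = 0.144, and 0.00118 with the block). In NC it was 51.6, 30.2 and 45.2 CPM at control and 47.4, 39.2 and 40.6 CPM at 24 h, a change of 0.00 ± 0.24. Acly, which makes cytosolic acetyl-CoA from citrate, had group means of 12.7 to 19.5 CPM. Acaca, the carboxylase that commits acetyl-CoA to fatty acids, had 16.8 to 26.1 CPM.

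Of the 4 tested LXR and efflux genes, 2 were called lower in NC and 3 in KD at each time, and none higher. That is 50% in NC and 75% in KD. Of all tested genes, 12.2 and 7.57% were called in NC and 16.0 and 9.59% in KD. Abca1 (ENSMUSG00000015243, chr4:53030787-53159895, minus strand), the pump that loads cholesterol onto apolipoproteins, was at similar levels in both controls. NC libraries held 712, 719 and 669.5 CPM at control, 489.9, 489 and 499.9 CPM at 12 h and 427, 432 and 429 CPM at 24 h. KD-labelled libraries held 713, 727 and 748 CPM at control, 342, 326 and 308 CPM at 12 h and 272, 288 and 274 CPM at 24 h. No groups of different time overlapped within a line, and at 12 h and 24 h all KD libraries lay below all NC libraries. The log2 change in NC was -0.51 ± 0.12 at 12 h (adjusted p = 0.00748, but 0.072 when only the compared groups were fitted and 0.0575 with no filter) and -0.71 ± 0.12 at 24 h (0.00062). In KD it was -1.16 ± 0.13 (5.11e-07) and -1.39 ± 0.13 (6.43e-08), a level 2.24-fold and 2.62-fold lower.

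Abcg1 (ENSMUSG00000024030, chr17:31057675-31117988, plus strand), the pump that passes sterol to mature lipoproteins, had 478, 378 and 451 CPM in NC control, 331, 253 and 319 CPM at 12 h and 253, 218 and 288 CPM at 24 h. In KD the levels were 686, 499 and 603 CPM, then 401, 329.8 and 317 CPM, then 292, 228 and 276 CPM. All treated libraries lay below the controls of their line. The log2 change in NC was -0.53 ± 0.17 at 12 h (adjusted p = 0.0399) and -0.78 ± 0.17 at 24 h (0.00436). In KD it was -0.77 ± 0.17 (0.0022) and -1.17 ± 0.17 (4.41e-05). The NC call at 12 h was lost without NC 12 h library 1, 2 or 3 (adjusted p = 0.0541, 0.114 or 0.0551) and without NC control library 1 or 3 (0.0839 or 0.0802).

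Mylip (ENSMUSG00000038175, chr13:45389742-45412022, plus strand), an LXR-driven ubiquitin ligase, was called against control in KD only in the fit without the block. In NC it had 11.0, 12.0 and 10.4 CPM at control, 6.96, 8.23 and 6.32 CPM at 12 h and 10.9, 11.8 and 10.5 CPM at 24 h. In KD it had 12.8, 14.1 and 12.4 CPM, then 6.89, 5.71 and 4.61 CPM, then 5.24, 6.46 and 4.99 CPM. NC libraries at 24 h overlapped the NC controls, and KD libraries at 24 h did not overlap theirs. KD fell by 1.19 ± 0.23 at 12 h (adjusted p = 0.000659) and by 1.24 ± 0.23 at 24 h (0.00079) on the log2 scale. In NC the change was -0.63 ± 0.23 at 12 h (0.0738, and 0.0346 with the block) and -0.01 ± 0.22 at 24 h (0.986). Without the block the interaction test did not call the 24 h change of KD less that of NC (-1.22 ± 0.32, adjusted p = 0.322). With the block it did. Of the receptors, Nr1h2 (LXR beta) had 6.81 to 16.4 CPM over all libraries and was not called in any comparison. Nr1h3 (LXR alpha) had 25 counts in all 18 libraries, 0 to 3 in each, and was not tested.

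**Figure D4:**
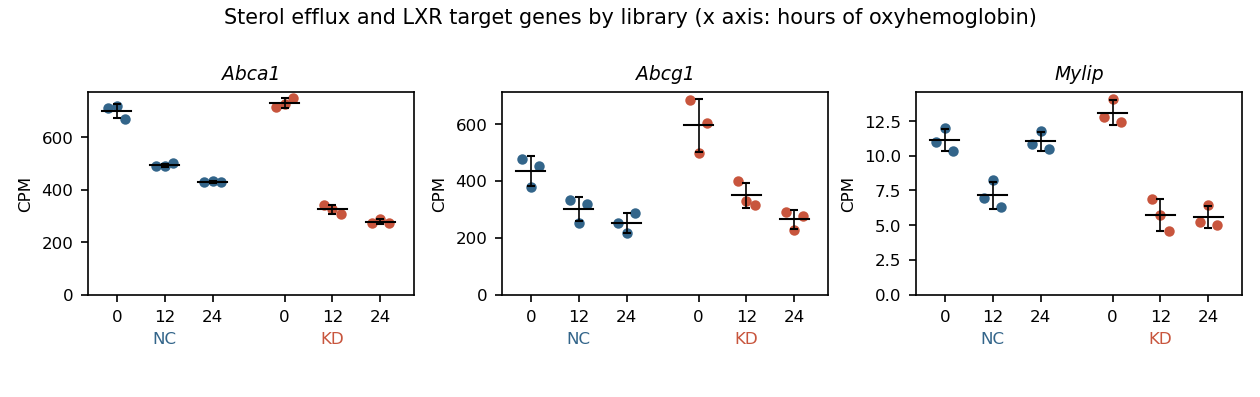
CPM (y axis, from 0) of Abca1, Abcg1 and Mylip in each library (points) at 0, 12 and 24 h of oxyhemoglobin (x axis), NC and KD side by side, with mean (line) and SD (bar). Abca1 is near 700 CPM in both controls, and at 24 h sits at 427 to 432 CPM in NC and 272 to 288 CPM in KD.

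The lines were compared to ask whether the label goes with a different level of these genes. Averaged over the 3 times, 7 of the 31 were called, 6 higher and 1 lower in the libraries labelled KD, where 9.99% of all tested genes were called. Lss (0.70 ± 0.13, adjusted p = 0.000794), Msmo1 (0.53 ± 0.11), Hsd17b7 (0.52 ± 0.12), Stard4 (0.50 ± 0.10), Cyp51 (0.48 ± 0.10) and Insig1 (0.44 ± 0.10) were higher. Abca1 was lower (-0.39 ± 0.07, adjusted p = 0.000905). That difference did not hold at control, where its mean was 729 CPM in KD and 700 CPM in NC, and lay at 12 h and 24 h. The call of Cyp51 reached an adjusted p of 0.0503 without the libraries numbered 2. The median over the 31 genes was 0.23.

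At control 2 of the 31 were called, both higher in KD, where 2.06% of all genes were called. These were Cyp51 (0.76 ± 0.18, adjusted p = 0.0226) and Stard4 (0.75 ± 0.17, 0.0139), with no overlap between the lines. Without NC control library 2 their adjusted p was 0.114 and 0.093, and without KD control library 3 it was 0.108 and 0.0823. Cyp51 also lost its call without NC control library 3 (0.0509) or KD control library 2 (0.0554), and Stard4 without NC control library 1 (0.0515). Insig1 (0.69 ± 0.18) had an adjusted p of 0.0507 with edgeR and 0.0114 with DESeq2. At 12 h only Abca1 was called (-0.60 ± 0.12, adjusted p = 0.0123), where 1.60% of all genes were. Its adjusted p was 0.0594 or 0.0881 without KD 12 h library 2 or 3, 0.0555 or 0.0569 without NC 12 h library 1 or 3, and 0.0606 without all libraries numbered 2. With the block Lss (0.52, adjusted p = 0.00859) and Msmo1 (0.58, 0.00177) joined it, higher in KD.

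At 24 h 3 were called, against 1.39% of all genes. Lss was higher in KD (1.02 ± 0.22, adjusted p = 0.0184), at 37.5 to 63.9 CPM against 25.1 to 27.8 CPM in NC. Abca1 (-0.63 ± 0.12, 0.0125) and Mylip (-0.99 ± 0.23, 0.0336) were lower, at 4.99 to 6.46 CPM against 10.5 to 11.8 CPM for Mylip. Without KD 24 h library 3 the adjusted p was 0.102 for Lss, 0.0648 for Abca1 and 0.156 for Mylip, and without KD 24 h library 1 it was 0.0772, 0.0644 and 0.142. Lss also lost its call without NC 24 h library 2 or 3 (0.0689 or 0.0612). Mylip did so without NC 24 h library 1, 2 or 3 (0.0787, 0.121 or 0.0658) or KD 24 h library 2 (0.0689), and stood at 0.05 without KD control library 1. Hsd17b7 missed the threshold at 24 h (0.74 ± 0.19, adjusted p = 0.0593, and 0.014 with DESeq2).

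The interaction asks whether the response to treatment differed between the lines. By edgeR without the block none of the 31 was called at 12 h or 24 h, where 0.0750% and 0.0313% of all genes were called. With the block edgeR called 2 at each time, Abca1 and Insig1 at 12 h and Abca1 and Mylip at 24 h. Pairing of the library numbers was not checked for the interactions, and the share of all genes called with the block is not given. Without the block 2 and 3 genes had an unadjusted p under 0.05, as did 904 and 740 of all 15996 tested genes. DESeq2 called 1 at each time. That gene was Abca1, with a KD response lower than the NC response by 0.66 ± 0.18 at 12 h (edgeR adjusted p = 0.279, DESeq2 adjusted p = 6.39e-06) and by 0.69 ± 0.18 at 24 h (0.301 and 3.55e-06). The 95% intervals of these differences were -1.02 to -0.30 and -1.05 to -0.32. Mylip differed by -1.22 ± 0.32 at 24 h (unadjusted p = 0.00089, adjusted p = 0.322). For Hsd17b7 the difference was -0.17 ± 0.29 at 12 h (95% interval -0.78 to 0.44) and 0.25 ± 0.30 at 24 h (-0.37 to 0.86), so intervals of this width do not show that the lines respond alike.

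**Figure D5:**
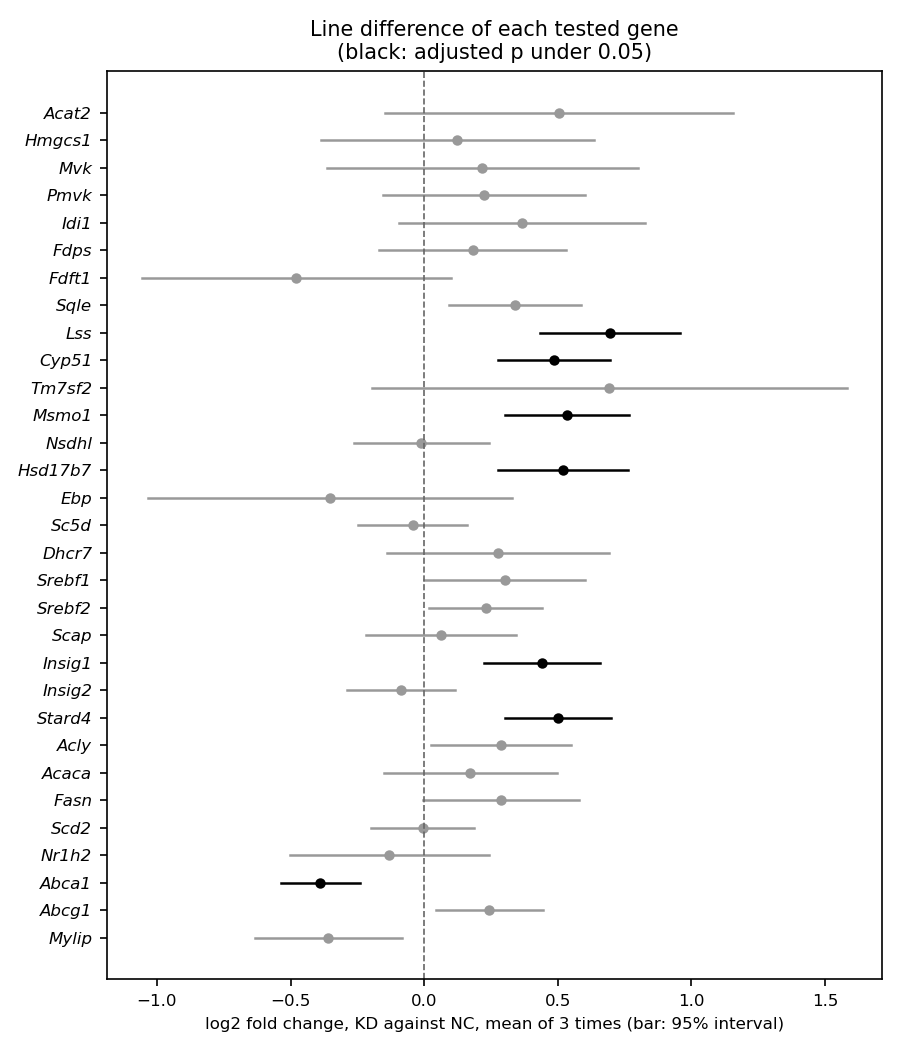
Log2 fold change of KD against NC averaged over the 3 times (x axis) for each of the 31 tested genes (rows), with the 95% interval (bar) and black for an adjusted p under 0.05. Of the 7 black rows, 6 lie right of 0, from 0.44 for Insig1 to 0.70 for Lss, and Abca1 lies left at -0.39.

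Other genes of the same pathways were listed by function, with earlier results of these data known. Of 14 tested further sterol genes, 2 rose and 3 fell in NC at 12 h, 0 and 1 at 24 h, 2 and 3 in KD at 12 h and 2 and 2 at 24 h. That is 35.7 and 7.14% of them in NC and 35.7 and 28.6% in KD, beside 12.2, 7.57, 16.0 and 9.59% of all tested genes in the same comparisons. Soat1, which esterifies cholesterol for storage, fell by 0.76 ± 0.15 in NC at 12 h (adjusted p = 0.0011) and by 0.71 ± 0.15 in KD at 24 h (0.0028). Lbr, a sterol reductase of the inner nuclear membrane, fell by 0.69 ± 0.18 in NC (0.011) and by 1.07 ± 0.18 in KD (0.00016) at 12 h. Of 9 tested LXR and lipoprotein genes, 1 rose and 2 fell in NC at 12 h, 0 and 3 at 24 h, 1 and 2 in KD at 12 h and 2 and 2 at 24 h, or 33.3% in the first 3 comparisons and 44.4% in the last. Arl4c, a small GTPase and LXR target, fell by 0.99 ± 0.16 in NC (0.00021) and by 1.83 ± 0.17 in KD (6.1e-08) at 12 h, and by 1.68 ± 0.17 in KD at 24 h (2.9e-07). Plin2, a lipid droplet coat protein, rose by 0.83 ± 0.14 in NC (0.00031) and by 0.82 ± 0.14 in KD (0.00027) at 12 h.

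Of 18 tested fatty acid and lipid genes, 2 rose and 0 fell in NC at 12 h, 1 and 0 at 24 h, 1 and 3 in KD at 12 h and 1 and 1 at 24 h. These shares, 11.1 and 5.56% in NC and 22.2 and 11.1% in KD, lie under the background of 12.2 and 7.57% in NC and near or above the 16.0 and 9.59% in KD. Acsl1, which activates long-chain fatty acids, rose at 12 h by 1.01 ± 0.17 in NC (adjusted p = 0.0002) and by 0.96 ± 0.17 in KD (0.0002). Lpin1, a phosphatidate phosphatase, fell by 1.58 ± 0.32 in KD at 12 h (0.00092). Between the lines, 4 of these 18 were lower in KD averaged over times (22.2%, beside 9.99% of all tested genes) and none was higher: Elovl5 (-0.67 ± 0.10) and Elovl7 (-0.55 ± 0.14), which lengthen fatty acids, Dgat2 (-0.64 ± 0.10), which makes triglyceride, and Gpam (-0.43 ± 0.11), which starts glycerolipid synthesis. In the same average 1 further sterol gene was higher and 2 were lower, 1 SREBP control gene was lower and 1 LXR and lipoprotein gene, Arl4c (-0.42 ± 0.10), was lower. Of 10 further SREBP control genes, none was called in NC at either time or in KD at 24 h by edgeR (2, 1 and 1 at an unadjusted p under 0.05), and 1 rose and 1 fell in KD at 12 h, 2 of 10 beside 16.0% of all genes. The gene that fell was Mbtps1 (-0.52 ± 0.15, adjusted p = 0.022), the protease that makes the opening cleavage of SREBP in the Golgi. Of all 15996 tested genes, 3860 (NC 12 h), 3049 (NC 24 h) and 3476 (KD 24 h) had an unadjusted p under 0.05.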

How the data were processed

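RNA of 18 libraries was sequenced, and the authors deposited read counts per gene as whole numbers, not normalized. Per the submitters' processing notes they used bcl2fastq, HISAT2 2.2.0, featureCounts and DESeq2 on GRCm38; use of strand in counting is not given in the sources used. Groups came from the sample titles. The deposited TPM values were not used. Within each group every pair of libraries differed by more than counting error (chi-square divided by its degrees of freedom, 4.98 to 19.6), so none was a copy of another. Each library was treated as a sample, although this spread does not show that they came from separate cultures. Counts were fitted with edgeR 4.0.16 (limma 3.58.1, R 4.3.3): TMM factors, filterByExpr (minimum count 10, 15996 genes kept, holding 99.65% of counts), 1 mean per group, robust quasi-likelihood test, Benjamini-Hochberg adjustment over all tested genes. A step on simulated counts was run first. Levels per length used GENCODE M21 exon bases, since the deposited lengths exceeded them for all 34 genes.

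The 34 members and the further lists were chosen with earlier results of these data known. All members could be named, and of each further list up to 4 genes with the lowest adjusted p in a comparison; some are given here only as counts. Same-numbered libraries deviated together (every correlation above 0.1) in the 6 comparisons within a line and between the lines at 12 h. Block values stand beside some of those results, and not every gene called only with the block is named. The numbers' meaning is not labelled. Alternatives were RLE factors, no filter, DESeq2 1.42.0, the library number as block, only the compared groups fitted, each library left out, and, chosen after seeing the data, all libraries numbered 2 left out. Exons of 11 members overlap another gene's, so shared reads could not be kept apart. Strand could separate only the overlaps on opposite strands, and those of Fdps and Tm7sf2, among others, are on the same strand.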

Additional observations from a re-analysis of the deposited data

How the results depend on the processing

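The 39 calls of members kept their direction in every alternative, and 28 were called in all 18 fits that left out 1 library. DESeq2, RLE factors and the library number as a block each kept all 39, no filter kept 34, the fit without the libraries numbered 2 kept 31, and fitting only the compared groups kept 23 of 32. With the replicate block the members called were 13 and 13 in NC at 12 h and 24 h against control, 2 in NC between these times, 12, 10 and 4 in the same KD comparisons and 3 for the lines at 12 h. Where the numbers did not pass as pairs, the block gave 7 for the lines at control and 9 at 24 h. Pairing was not checked for the average over times, where the block gave 14, or for the interactions. There it gave 2 for each interaction (Abca1 and Insig1 at 12 h, Abca1 and Mylip at 24 h). The share of all genes called with the block is not given, so these counts are not set against a background. Between the lines at control the count was 0 in the fit of those groups alone, and 1 when the libraries numbered 2 were dropped. At 12 h it was 0 with no filter, 0 with only the compared groups and 0 without the libraries numbered 2, and at 24 h it was 1 in each of these. DESeq2 called 1 member in each interaction. The causes were not tested. Leaving out 1 library gave 5 to 8 members in NC at 12 h (5 without NC 12 h library 1) and, between the lines, 0 to 3 at control, 0 to 1 at 12 h and 0 to 4 at 24 h. Depth limits the low genes: members under about 5 CPM rest on few counts per library.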
